A study of Mus musculus with 12 samples.

Results

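Lines called rsEpiSC, derived from the mouse epiblast at embryonic day (E) 5.75, were compared with embryonic stem cells (ESC) derived at E3.5. The comparison takes every gene that could be named from the deposited expression table, 22180 in all, on 4 of the series' 12 arrays: 2 of ESC and 2 of rsEpiSC E5.75. The other 8 arrays (rsEpiSC derived at E6.5, epiblast stem cells or EpiSC derived at E5.75, and epiblast tissue of E5.75 and E6.5) served to estimate the spread and to set some values side by side. ESC were kept with CHIR99021 at 3 µM, an inhibitor of the kinase GSK3 that activates Wnt signalling, PD0325901 at 1 µM, an inhibitor of the kinase MEK that blocks signalling through ERK, and the cytokine LIF at 10 µg/ml. The rsEpiSC lines, which other label fields call intrinsic state epiblast stem cells, were kept with IWR1 at 2.5 µM, which blocks the Wnt pathway, together with 20 ng/ml of a factor the labels do not name. Both grew in N2B27 medium on mouse embryonic fibroblasts as feeder cells. The strain field names a cross of OCT4-deltaPE-GFP, a reporter of Pou5f1 activity, but its last number and the passage field count up from array to array, so neither was used. Stage of derivation and medium differ together between ESC and rsEpiSC, and their parts in any difference cannot be told apart. EpiSC share the stage of rsEpiSC E5.75 but not the medium. Theirs held the serum substitute KSR (20%), Activin A (20 ng/ml) and FGF2 (12 ng/ml), with no IWR1 listed. EpiSC are therefore not a control that differs from rsEpiSC in 1 factor only.

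ESC in this medium are held in naive pluripotency, the state of the epiblast before implantation, by a network of transcription factors that includes Klf4, Esrrb, Tfcp2l1 and Nanog. After implantation the epiblast becomes a polarised epithelium in the primed state, with Otx2 and Fgf5 up and the naive factors off, and from it arise neural ectoderm at the anterior and, under Wnt and Nodal signals, the primitive streak at the posterior. Pou5f1 (Oct4) and Sox2 are common to both pluripotent states.

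Signals are log2 values, on which 1 unit is a 2-fold difference, and differences are rsEpiSC E5.75 minus ESC given with a standard error (SE) from limma, a linear model fitted to all 12 arrays and 22180 genes, with 2 arrays in each group. The words rose and fell are kept for genes with an adjusted p under 0.05 in that model. They numbered 2282 of 22180 (10.3%), of which 1218 rose (5.49%) and 1064 fell (4.80%). The count was 1027 without rsEpiSC replicate 1 and 1092 without rsEpiSC replicate 2, and without ESC replicate 2 the genes that rose numbered 745. By at least 16-fold 73 genes fell and 19 rose. Replicate arrays correlated across genes at 0.965 in ESC and 0.985 in rsEpiSC, with root mean square SDs between replicates of 0.413 and 0.264, and 50.37% of all genes had groups that did not overlap. The labels do not say that replicates are separate cultures, so the p-values rest on the spread among these arrays alone, and that spread may be technical. The Y-linked gene Eif2s3y had signals of 2.71 and 8.19 in ESC and 5.17 and 2.33 in rsEpiSC E5.75, so within each group its signal differed widely between the arrays. Uty, also Y-linked, read 2.71 and 5.17 in ESC and 3.80 and 3.23 in rsEpiSC, but Kdm5d, another Y-linked gene, was low on both ESC arrays (2.51 and 2.14) and read 4.56 and 2.54 in rsEpiSC. Whether the 2 arrays of a group come from 1 line was not tested.

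**Figure D1:**
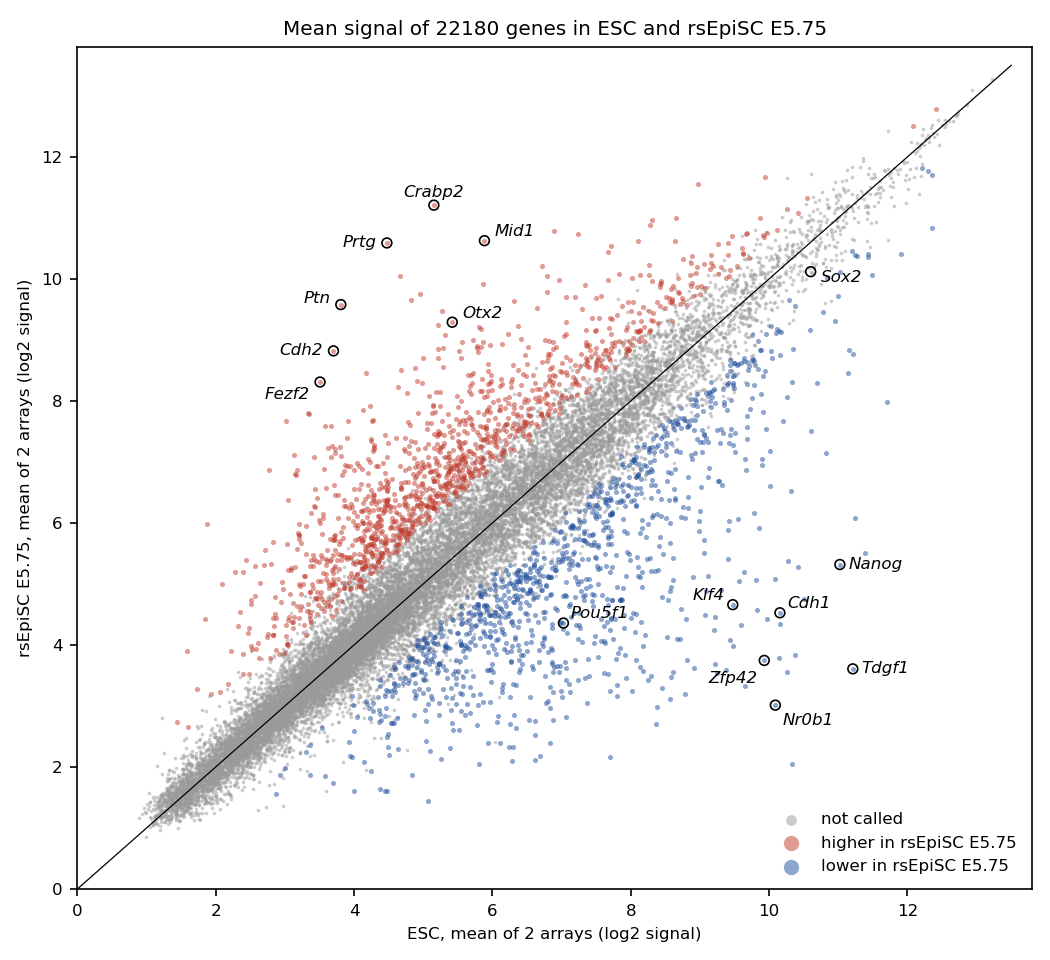
Mean log2 signal in ESC (x axis) against rsEpiSC E5.75 (y axis) for 22180 genes, each the mean of 2 arrays, with genes that rose in red, genes that fell in blue and the line of equal signal in black. Circled genes are named in the text: Sox2 lies near the line, Tdgf1, Nr0b1 and Zfp42 far below it, and Prtg and Crabp2 far above it.

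The transcription factors of naive pluripotency fell together in rsEpiSC E5.75. Of 14 measured factors 12 fell and 0 rose, with a median difference of -3.99 against 0.017 over all genes, and 12 also fell when any 1 of the 4 arrays was left out. Nr0b1, an orphan nuclear receptor, had signals of 10.72 and 9.46 in ESC and 2.84 and 3.18 in rsEpiSC, a difference of -7.08 ± 0.46 or 135-fold (adjusted p = 2.53e-06). Zfp42 (Rex1), the classic marker of the naive state, read 10.47 and 9.39 in ESC against 3.76 and 3.74 (-6.18 ± 0.42). The T-box factor Tbx3 read 9.90 and 10.41 against 4.37 and 4.33 (-5.80 ± 0.29). In each of these genes both rsEpiSC arrays lay at or below the median signal of all genes, which was between 4.58 and 4.65 on the 4 arrays.

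The Krüppel-like factors followed the same direction. Klf4 had signals of 9.39 and 9.56 in ESC and 4.80 and 4.52 in rsEpiSC (-4.81 ± 0.27), and Klf5 had 11.21 and 11.27 against 6.11 and 6.07 (-5.15 ± 0.31). Tfcp2l1, a factor downstream of LIF, fell by 5.49 on the log2 scale (SE 0.29), and Esrrb, an orphan receptor that binds with Nanog, fell by 2.68 (SE 0.31). Klf5 was the 1 of these 4 that also differed from EpiSC, the other line of E5.75: it was 2.56 lower in rsEpiSC (adjusted p = 0.000613), while Klf4 (-0.60, adjusted p = 0.357), Tfcp2l1 (-0.99, adjusted p = 0.0974) and Esrrb (0.16, adjusted p = 0.954) did not pass there. Comparisons with EpiSC use the same rsEpiSC arrays, and 3.87% of all genes passed in them. The factors that did not pass against ESC were Gbx2 (0.64 ± 0.26, adjusted p = 0.169; its other probe set gave 2.02) and Nr1d2 (-0.24 ± 0.40).

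Other markers of the naive state fell as well, 11 of 16 measured, with 0 that rose and a median of -3.89 (10 or 11 fell when 1 array was left out). Among them was Fgf4, the growth factor by which ESC act on themselves, with 9.25 and 9.37 in ESC against 4.84 and 4.98 in rsEpiSC (-4.40 ± 0.35). Dppa3 (Stella), a maternal factor that protects methylation marks, had 6.97 and 6.78 against 2.77 on both arrays (-4.11 ± 0.37). Pecam1, an adhesion molecule of the inner cell mass, read 7.93 and 8.43 against 4.04 and 3.92 (-4.20 ± 0.27). Aire (-0.88 ± 0.31, adjusted p = 0.112) and Pramel6 (-0.25 ± 0.36) did not pass.

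The label of pluripotent cells was checked against the factors common to both states, and they did not move together. Of 12 core genes 8 fell and 1 rose (7 fell when any 1 array was left out). Sox2 had 10.70 and 10.51 in ESC and 10.37 and 9.87 in rsEpiSC, and its difference did not pass (-0.48 ± 0.24, adjusted p = 0.293), while it was 3.26 higher than in EpiSC (adjusted p = 4.32e-05). Pou5f1 had 6.95 and 7.11 in ESC and 4.87 and 3.86 in rsEpiSC (-2.67 ± 0.33, 6.35-fold, adjusted p = 0.000248), and was also lower than in EpiSC, where it read 5.71 and 5.96 (-1.47, adjusted p = 0.0271). Nanog had 11.51 and 10.54 in ESC and 5.08 and 5.55 in rsEpiSC (-5.70 ± 0.35), and was 3.47 lower than in EpiSC (adjusted p = 0.000237). The 2 rsEpiSC signals of Pou5f1 thus lay on either side of the median signal of all genes. Epiblast tissue itself read only between 5.542 and 5.905 for Pou5f1. Closeness to the median therefore does not show that the gene was off in rsEpiSC.

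Lin28a, an RNA-binding protein that blocks maturation of let-7, rose from 5.58 and 6.15 to 9.25 and 8.69 (3.10 ± 0.29, adjusted p = 3.36e-05). Sall4 read 8.75 and 8.48 in ESC and 8.80 and 8.41 in rsEpiSC (-0.01 ± 0.27, adjusted p = 0.996). Dppa2 (-5.06 ± 0.40) and its partner Dppa4 (-3.52 ± 0.35) fell, and so did Utf1 (-3.12 ± 0.37), a chromatin factor of undifferentiated cells. Utf1 also differed between the rsEpiSC groups: those of E5.75 read 5.36 and 6.37, while those of E6.5 read 9.62 and 8.76, 3.32 higher (adjusted p = 0.00587), in a comparison in which 0.0857% of all genes passed and in which stage and line cannot be told apart.

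**Figure D2:**
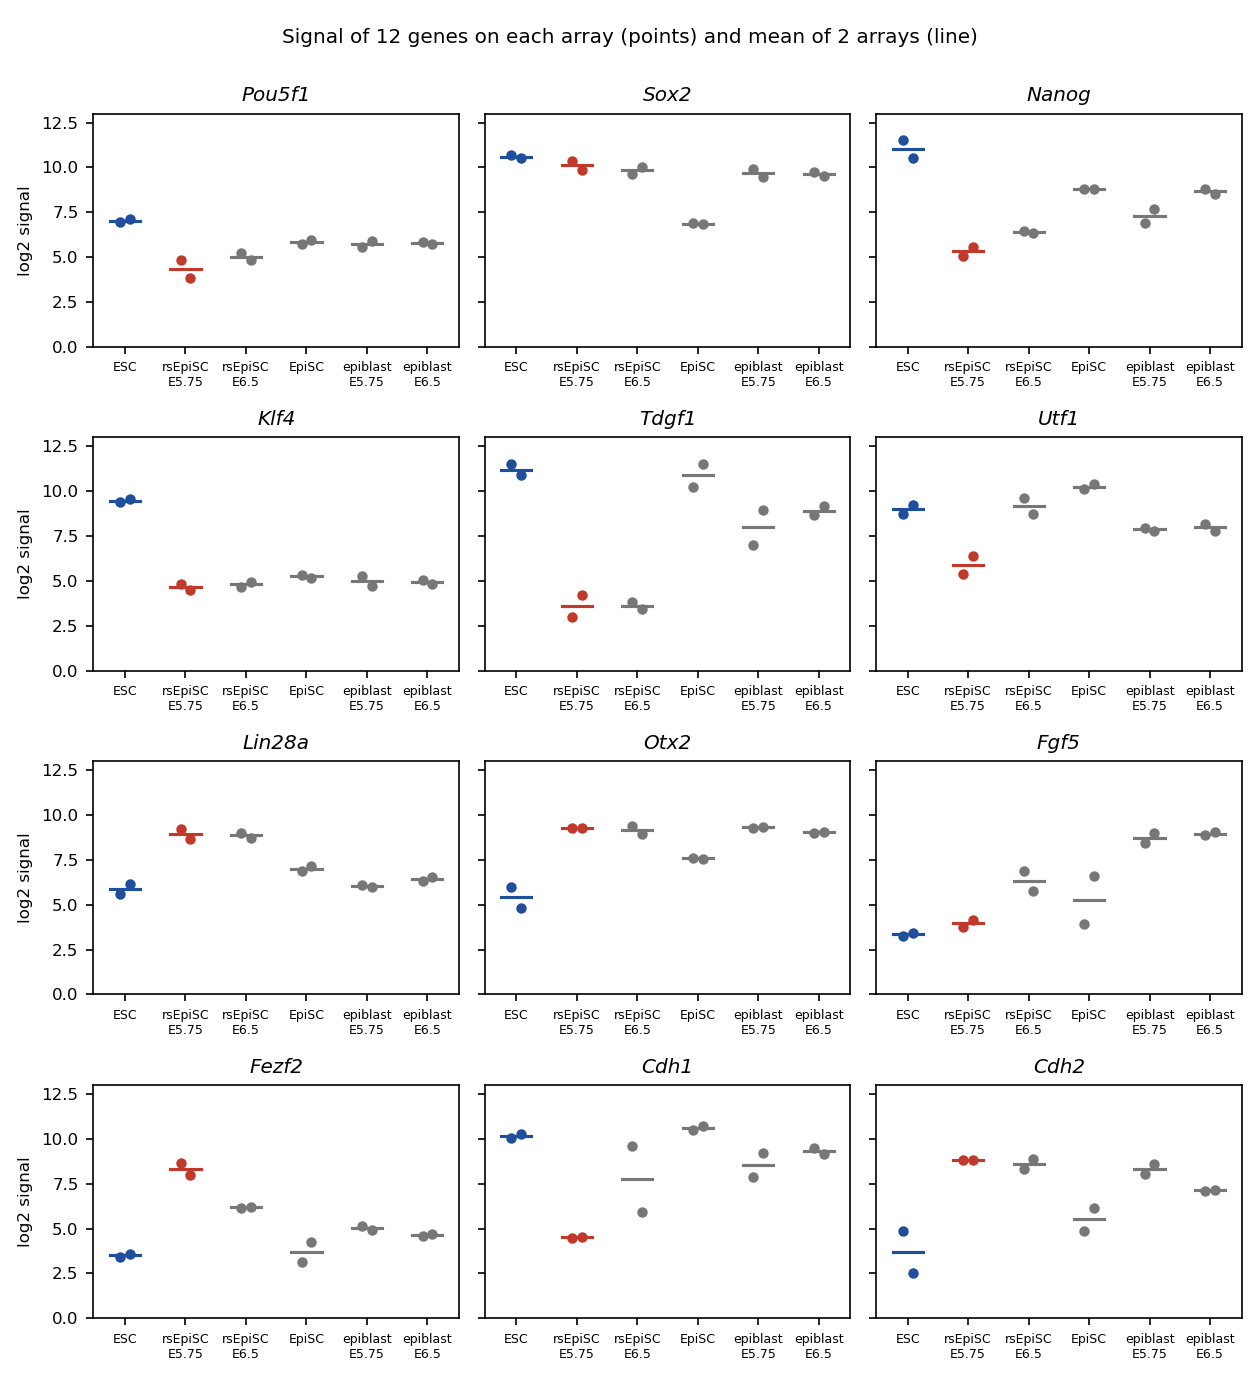
Log2 signal of 12 genes (y axis) on all 12 arrays by group (x axis), with a point per array and a line at the mean of the 2; ESC are blue, rsEpiSC E5.75 red and the other groups grey. Sox2 stays between 9.87 and 10.70 on the ESC and rsEpiSC E5.75 arrays while the means of Nanog and Klf4 are 5.70 and 4.81 lower in the second group, and Cdh1 differs between the arrays of rsEpiSC E6.5.

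Genes of the epiblast after implantation rose in rsEpiSC, but not the usual marker Fgf5. In this list 11 of 17 measured genes rose and 0 fell, with a median of 1.40 (8 to 10 rose when 1 array was left out). Otx2, the homeobox gene that drives the exit from the naive state and marks the anterior, rose from 6.00 and 4.84 to 9.29 on both arrays (3.87 ± 0.33, adjusted p = 1.67e-05). Fgf5 read 3.27 and 3.44 in ESC and 3.78 and 4.17 in rsEpiSC (0.62 ± 0.65, adjusted p = 0.738), although epiblast tissue of E5.75 had a mean of 8.72. Dnmt3b, the main de novo DNA methyltransferase of the epiblast, had 8.26 and 6.81 in ESC and 8.09 and 8.37 in rsEpiSC, so that the groups overlapped (0.69 ± 0.55, adjusted p = 0.604; -0.027 without ESC replicate 2). Sox4 (4.79 ± 0.25), Sall2 (2.43 ± 0.29), the Wnt antagonist Sfrp2 (2.00 ± 0.29) and the Hippo pathway factor Tead2 (2.11 ± 0.35) rose.

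The 15 largest gains among the genes named by the rule were of mixed kinds, and 3 of them (Ptn, Fezf2 and Mid1) are in the list of anterior and neural ectoderm. Prtg, a receptor of the DCC family, had 4.54 and 4.41 in ESC and 10.62 and 10.55 in rsEpiSC (6.11 ± 0.24, 69.3-fold, adjusted p = 1.9e-07). Crabp2, a carrier of retinoic acid, rose from 5.09 and 5.22 to 11.22 and 11.20 (6.05 ± 0.25), and Crabp1, of the same family, from 6.70 and 6.75 to 10.22 and 10.21 (3.49 ± 0.44). The growth factor gene Ptn rose from 4.20 and 3.42 to 9.23 and 9.93 (5.77 ± 0.38). These genes were named for their large differences, so the distance between their groups follows from that choice. Others were the fibroblast collagen gene Col1a2, Ccnd2 (cyclin D2; 5.37 ± 0.53), Dpysl2, which acts on microtubules in growing axons (4.84 ± 0.32), and Prkar2b, a regulatory subunit of protein kinase A (4.65 ± 0.42).

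In the list of anterior and neural ectoderm 16 of 23 measured genes rose and 0 fell, with a median of 2.14, and 11 to 14 rose when 1 array was left out. Fezf2, a transcription factor of the forebrain, had 3.42 and 3.60 in ESC and 8.63 and 7.99 in rsEpiSC (4.80 ± 0.35, adjusted p = 5.75e-06). Lhx5, a homeobox gene of the forebrain, rose from 3.69 and 3.18 to 7.25 and 5.86 (3.12 ± 0.40), and Hesx1, a repressor of the anterior neural plate, from 4.26 and 3.45 to 7.77 and 5.95 (3.00 ± 0.61, adjusted p = 0.00727; it no longer passed without ESC replicate 2 or without rsEpiSC replicate 1, with adjusted p up to 0.0915). The 2 rsEpiSC arrays differed in Lhx5 and Hesx1 by more than 1 unit, replicate 1 being the higher. Mid1, a ubiquitin ligase on microtubules, rose from 5.85 and 5.92 to 10.57 and 10.68 (4.74 ± 0.26), and Tox3 from 4.81 and 5.20 to 8.87 and 8.55 (3.71 ± 0.32).

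Several of these neural genes also differed between rsEpiSC and EpiSC, which are of the same stage but were kept in another medium. Fezf2 was 4.59 higher in rsEpiSC (adjusted p = 4.88e-05), Mid1 4.26 (adjusted p = 1.07e-05), Ptn 4.31 (adjusted p = 0.000122), Tox3 3.59 (adjusted p = 0.000123) and Lhx5 3.35 (adjusted p = 0.000606). The signal summed over the 23 genes, on a linear scale, was 528 and 639 in ESC, 669 and 718 in EpiSC, 4809 and 4881 in rsEpiSC E5.75, and 719 and 888 in epiblast E5.75. In rsEpiSC E6.5 it was 2792 and 3020, and Mid1 was 3.81 lower there than in rsEpiSC E5.75 (adjusted p = 0.000114). A linear sum gives the brightest genes the most weight, and Mid1 read 10.57 and 10.68 in rsEpiSC E5.75. The median log2 signal of the 23 genes was not lower throughout. It was 5.95 and 6.36 on the arrays of rsEpiSC E5.75 and 6.12 and 6.13 on those of rsEpiSC E6.5. Fewer cells of a type and less RNA per cell cannot be told apart in these bulk samples. Members of the list that did not pass included the neural progenitor filament gene Nes (0.89 ± 0.28, adjusted p = 0.0707), Lhx2 (0.80 ± 0.33) and Emx2 (1.44 ± 0.45).

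**Figure D3:**
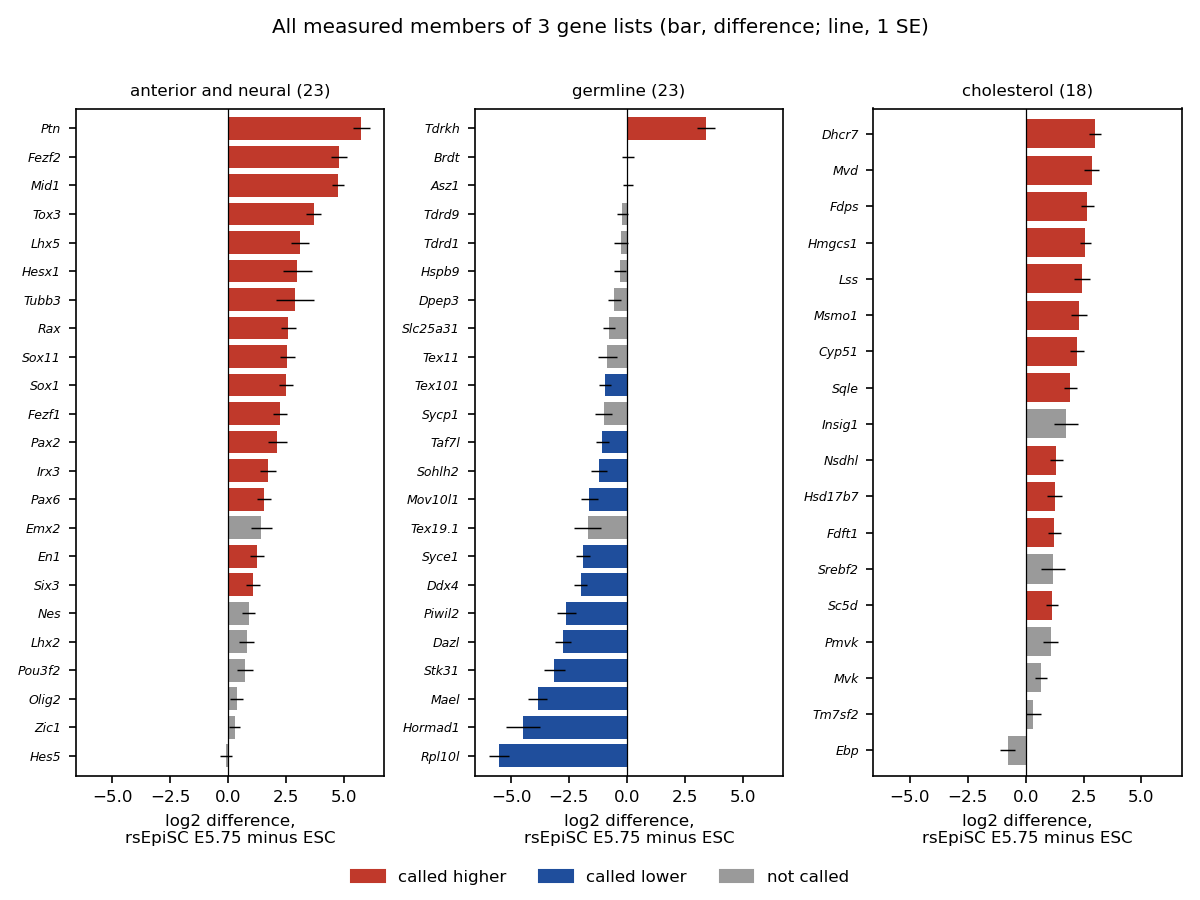
Log2 difference between rsEpiSC E5.75 and ESC (x axis; bar, with 1 SE as a line) for every measured member of the lists of anterior and neural ectoderm, germline genes and cholesterol genes, red where a gene rose, blue where it fell and grey where it did not pass. Of 23 neural genes 16 are red, of 23 germline genes 12 are blue and Tdrkh is red, and of 18 cholesterol genes 12 are red.

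Genes of cell guidance and of other germ layers were set beside them. Of 43 measured genes for semaphorins, ephrins, slits, netrins and their receptors, which steer axons and sort cells, 16 rose and 1 fell, with a median of 0.58 (7 to 14 rose when 1 array was left out). The ephrin gene Efnb2 rose from 5.14 and 4.21 to 8.63 and 8.38 (3.83 ± 0.42), and Efna5 from 5.81 and 5.62 to 8.98 and 9.04 (3.29 ± 0.30). The receptor gene Epha7 rose (2.96 ± 0.28), as did Ephb1 (2.56 ± 0.29), whereas Epha2, a receptor of the early embryo, fell (-2.99 ± 0.55). Mesoderm and endoderm genes were counted as well: of 23 genes of the primitive streak and mesoderm 1 rose and 2 fell (0 rose and up to 1 fell when 1 array was left out), of 12 of the definitive endoderm 1 rose, and of 35 Hox genes 0 rose and 2 fell (1 when any 1 array was left out). The mesoderm genes that passed were Pdgfra (1.48 ± 0.40, adjusted p = 0.0354), Snai1 (-1.66 ± 0.35, adjusted p = 0.00958) and Eomes (-0.97 ± 0.26, adjusted p = 0.0347), and each was lost in at least 2 of the 4 fits that left out an array (adjusted p up to 0.214 for Pdgfra, 0.195 for Eomes and 0.108 for Snai1). The endoderm gene that passed was Cxcr4, a chemokine receptor that neural cells also carry (2.60 ± 0.41). Over all genes 5.49% rose and 4.80% fell. The shares were 4.35% and 8.7% in the list of streak and mesoderm, 8.33% and 0% in definitive endoderm, and 0% and 5.71% in the Hox genes. These counts therefore lie near those of all genes.

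Markers of the extraembryonic lineages and of germ cell precursors were examined too. Of 19 visceral endoderm genes 2 rose (10.5%, against 5.49% of all genes). They were Pdgfra, whose call did not hold when 1 array was left out, and the endocytic receptor gene Lrp2. Lrp2 rose from 5.83 and 4.73 to 8.32 and 8.79 (3.27 ± 0.36, adjusted p = 0.000119) and was as high in EpiSC, at 8.68 and 8.71. Of 17 trophoblast genes 4 fell and Fgfr2 rose, and 2 or 3 fell when 1 array was left out, since Eomes and Gata2 lost their calls (adjusted p up to 0.195 and 0.112). Tead4, a factor that specifies trophoblast, fell from 7.70 and 7.66 to 5.82 and 5.50 (-2.02 ± 0.26), and Tfap2c, shared by trophoblast and germ cell precursors, from 4.84 and 5.16 to 3.60 and 3.27 (-1.57 ± 0.25). Of 13 genes of primordial germ cells 7 fell and 0 rose (7 to 9 when 1 array was left out), several of which are naive genes as well: Prdm14, which represses methyltransferase genes, fell from 7.29 and 6.31 to 3.999 and 3.79 (-2.91 ± 0.43), and Tcl1, a coactivator of AKT, from 8.69 and 7.36 to 3.41 and 3.07 (-4.79 ± 0.37).

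Cadherins switched between the groups. Cdh1 (E-cadherin), which holds epithelial cells and ESC together, had 10.06 and 10.25 in ESC and 4.50 and 4.56 in rsEpiSC (-5.63 ± 0.82, 49.5-fold, adjusted p = 0.000878). Cdh2 (N-cadherin), the cadherin of neural and mesodermal cells, had 4.85 and 2.55 in ESC and 8.83 and 8.81 in rsEpiSC (5.12 ± 0.60, 34.7-fold, adjusted p = 0.000178). Both probe sets of each gene gave the same direction. EpiSC kept Cdh1 at 10.53 and 10.73, so that rsEpiSC were 6.10 lower than EpiSC (adjusted p = 0.00141). The arrays of rsEpiSC E6.5 disagreed on Cdh1, with 9.59 and 5.94, and its difference between the 2 stages did not pass (3.23, adjusted p = 0.36).

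Some other epithelial genes fell too: of 25 measured genes of adhesion, tight junctions and the epithelial to mesenchymal transition 10 fell and 2 rose (5 to 8 fell when 1 array was left out). Epcam, an epithelial adhesion molecule, had 9.10 and 8.13 in ESC and 5.17 and 4.96 in rsEpiSC (-3.55 ± 0.53), and the tight junction gene Cldn4 9.02 and 9.12 against 4.33 and 4.66 (-4.58 ± 0.39). The change was not that of a mesenchymal transition in every gene, since Snai1, a repressor of Cdh1, fell and so did Fn1 (fibronectin), from 10.81 and 11.61 to 8.87 and 8.68 (-2.43 ± 0.32). Of 12 basement membrane genes 6 fell and 1 rose (4 to 6 fell when 1 array was left out): Nid1 (nidogen) fell by 3.95 (SE 0.48), Lama1 (laminin) by 2.46 (SE 0.27) and Nid2 by 2.10 (SE 0.26).

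Markers of fibroblasts, which form the feeder layer of all lines, were higher on the rsEpiSC arrays in part. Of 20 measured markers 5 rose and 0 fell (4 when any 1 array was left out): Col1a2 (4.44 ± 0.63; its other probe set gave 0.66), Mmp2 (2.59 ± 0.41), Tagln (2.52 ± 0.34), Acta2 (2.03 ± 0.33) and Pdgfra. The linear signal summed over the 20 was 516 and 559 in ESC, 1261 and 1461 in rsEpiSC E5.75 and 1616 and 2390 in EpiSC. Col1a1, at 4.99 and 4.81 in ESC and 4.63 and 4.72 in rsEpiSC, Col3a1, at 4.46 and 3.99 against 4.60 and 4.45, and Lum and Fap, at 2.72 or less on all 4 arrays, did not pass. Vim, a filament gene of fibroblasts and neural progenitors alike, rose (2.19 ± 0.50, adjusted p = 0.0152; up to 0.116 when 1 array was left out). The part of feeder RNA in the changes of adhesion and matrix genes was not tested.

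The media act on 3 pathways, and their target genes were examined in turn. Inhibition of GSK3 in the ESC medium stabilises beta-catenin, and IWR1 in the rsEpiSC medium promotes its destruction, so direct Wnt targets are the readout of that difference. Of 19 measured targets 0 fell and 5 rose, with a median of 0.14 (2 to 5 rose and up to 2 fell when 1 array was left out). Axin2, the most general target, had 5.23 and 5.72 in ESC and 5.85 and 6.37 in rsEpiSC (0.64 ± 0.30, adjusted p = 0.27). Lef1, which is both a target and a mediator of the pathway, rose from 4.96 and 4.79 to 7.07 and 7.58 (2.44 ± 0.27, adjusted p = 0.000122), and Nkd2, a feedback inhibitor, from 3.81 and 3.82 to 5.45 and 5.34 (1.58 ± 0.29). Cdx1, a target gene of the posterior embryo, read 4.30 and 4.85 against 3.66 and 3.76 (-0.86 ± 0.28, adjusted p = 0.0818). The mean log2 signal of the 19 targets in ESC was 5.01 and 4.61, near the medians of all genes on those arrays (4.64 and 4.58). Dim targets had little room to fall, which limits what the lack of falls can show. The listed targets Tbxt and Tcf7 were not measured.

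Other parts of the Wnt pathway were counted in the same way. Of 22 receptors and intracellular components 8 rose and 1 fell, with a median of 0.70 (5 to 8 rose when 1 array was left out). The receptor gene Fzd3 rose from 5.60 and 4.84 to 9.00 and 8.72 (3.64 ± 0.34), Fzd2 from 3.59 and 3.33 to 6.60 and 6.23 (2.95 ± 0.28), and Wls, which carries Wnt proteins to the cell surface, from 6.37 and 5.29 to 9.25 and 9.12 (3.35 ± 0.50). Of 19 ligands 2 rose (10.5%, against 5.49% of all genes), Wnt1 and Wnt5a, and the call of Wnt5a was lost when some arrays were left out. Wnt1, the ligand of the dorsal midbrain and neural tube, had 4.04 and 3.78 in ESC and 7.70 and 7.64 in rsEpiSC (3.75 ± 0.47) and was 3.68 higher than in EpiSC (adjusted p = 0.000947). Of 13 secreted antagonists 2 rose, Sfrp2 and Frzb, the second from 3.32 and 2.93 to 7.21 and 7.03 (3.99 ± 0.48).

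**Figure D4:**
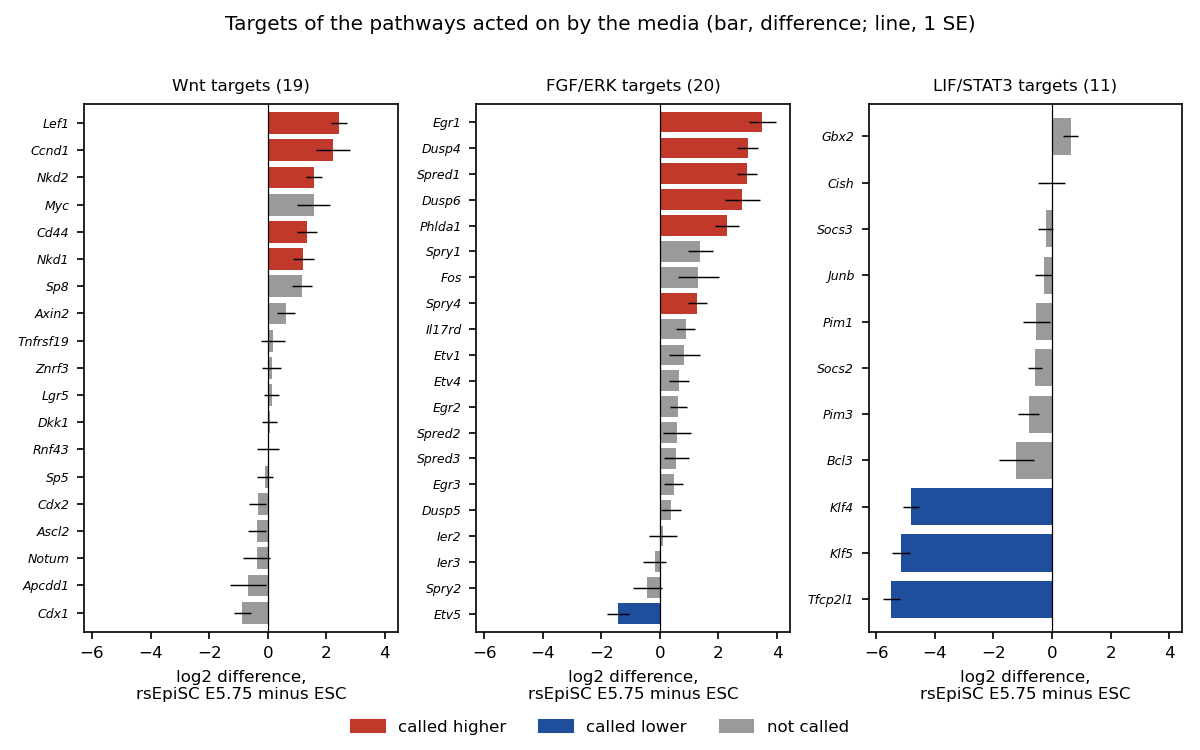
Log2 difference between rsEpiSC E5.75 and ESC (x axis; bar, with 1 SE as a line) for every measured target gene of Wnt, of FGF/ERK and of LIF/STAT3 signalling, coloured by whether it rose (red), fell (blue) or did not pass (grey). No Wnt target is blue, 6 of 20 ERK targets are red, and the 3 blue LIF targets are Klf4, Klf5 and Tfcp2l1.

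ERK lies downstream of MEK, the kinase inhibited in the ESC medium. Of 20 measured target and feedback genes 6 rose, 1 fell and 13 did not pass, with a median of 0.74 (4 or 5 rose when 1 array was left out). Egr1, an immediate early factor, rose from 4.24 and 3.56 to 7.22 and 7.55 (3.49 ± 0.46, adjusted p = 0.000413), and the phosphatase gene Dusp4 from 4.60 and 5.56 to 8.05 and 8.11 (3.00 ± 0.36). Dusp6, the ERK phosphatase, had 9.09 and 6.35 in ESC and 10.52 and 10.55 in rsEpiSC (2.82 ± 0.59, adjusted p = 0.0093; up to 0.0668 when 1 array was left out), so that the ESC arrays lay further from each other than replicate 1 lay from rsEpiSC. Spred1, an inhibitor of Ras signalling, rose (2.97 ± 0.34). Etv5 fell from 11.81 and 11.17 to 9.66 and 10.46 (-1.43 ± 0.37, adjusted p = 0.0289; up to 0.274 when 1 array was left out, and its other probe set gave -0.37). Among the receptors Fgfr2 rose from 3.83 and 3.32 to 7.80 and 7.39 (4.02 ± 0.32). Of 21 FGF ligands Fgf4 fell (4.76%, against 4.80% of all genes) and 0 rose.

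LIF acts through Lifr, Il6st and the factor Stat3, and rsEpiSC were kept without LIF as far as the labels say. Of 9 components 3 fell (1 or 2 when 1 array was left out), Lifr (-1.59 ± 0.30), Stat3 (-1.53 ± 0.31) and Tyk2 (-1.32 ± 0.31), with adjusted p of up to 0.0502, 0.0626 and 0.126 when 1 array was left out. Of 11 targets the 3 that fell, Klf4, Klf5 and Tfcp2l1, are also naive factors. Socs3, the feedback inhibitor that Stat3 induces, read 5.66 and 5.97 in ESC and 5.62 and 5.56 in rsEpiSC (-0.22 ± 0.26, adjusted p = 0.77), while its dimmer probe set gave -2.78. Pim1 (-0.53 ± 0.45) and Junb (-0.29 ± 0.30) did not pass.

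Nodal signalling maintains the primed state, and its parts were counted from the ligands to the mediators. Tdgf1 (Cripto), which Nodal needs to bind its receptors, had 11.51 and 10.91 in ESC and 2.98 and 4.24 in rsEpiSC, the largest fall among the genes named by the rule (-7.60 ± 0.61, 194-fold, adjusted p = 1.23e-05). EpiSC, whose medium contains Activin A, had 10.24 and 11.52, so rsEpiSC were 7.27 lower than EpiSC (adjusted p = 9.05e-05). In the list of the pathway 7 of 24 measured genes fell and 2 rose (5 to 8 fell when 1 array was left out). Gdf3, a related ligand, fell from 8.87 and 7.48 to 3.75 and 3.38 (-4.61 ± 0.43), and Smad7, an inhibitor that the pathway induces, from 8.13 and 7.85 to 5.84 and 4.93 (-2.61 ± 0.33). Nodal (-1.77 ± 0.56, adjusted p = 0.0724) and Lefty2, with 8.19 and 3.999 in ESC against 3.33 and 2.96 (-2.95 ± 0.91, adjusted p = 0.0646), did not pass. Smad3, a mediator, rose (1.62 ± 0.24). In the related BMP pathway 2 of 25 genes rose (8%) and 1 fell (4%), near the 5.49% and 4.80% of all genes. Id3, a target, had 6.81 and 4.24 in ESC and 8.81 and 8.82 in rsEpiSC (3.29 ± 0.78, adjusted p = 0.0173), with ESC arrays that lay apart. Id3 and the receptor gene Bmpr1a (0.82 ± 0.23) each lost their call in 3 of the 4 fits that left out an array, with adjusted p up to 0.141 and 0.223.

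A list of germline genes, which somatic cells keep silent by DNA methylation, was lower in part in rsEpiSC. Of 23 measured genes 12 fell and Tdrkh rose, with a median of -1.06 (8 to 11 fell when 1 array was left out). Rpl10l, a ribosomal protein gene of the testis, had 8.17 and 7.21 in ESC and 1.70 and 2.63 in rsEpiSC (-5.53 ± 0.44). Hormad1, a protein of meiotic chromosomes, had 7.92 and 5.30 against 2.23 and 2.00 (-4.50 ± 0.73), and Mael, of the piRNA pathway, 6.33 and 7.66 against 3.13 and 3.17 (-3.85 ± 0.40). Ddx4 (Vasa), an RNA helicase of germ cells, had 5.24 and 5.01 against 2.95 and 3.29 (-2.001 ± 0.26). All 8 rsEpiSC signals of these genes were at most 3.29, below the median of all genes. EpiSC had means of 2.22 for Hormad1, 3.34 for Mael and 3.54 for Ddx4. Epiblast tissue of E5.75 was not low in these genes. It read 8.939 and 8.149 for Rpl10l and 6.404 and 5.140 for Hormad1. For Mael it read 6.234 and 5.958, and for Ddx4 5.812 and 6.015. In tissue of E6.5 Hormad1 was lower, at 3.536 and 2.036. Tdrkh, a partner of piRNA proteins, rose from 3.19 and 4.26 in ESC to 7.19 and 7.11 in rsEpiSC (3.42 ± 0.38).

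The promoters of 3 of these genes are shown because they hold an E-box, CACGTG, a site bound by factors that silence germline genes in embryonic cells. The sequences are the 250 bases before the transcription start in RefSeq's annotation of the mouse genome GRCm38.p6, with the E-box in capitals.

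Mael (chr1:166238745-166238994, minus strand): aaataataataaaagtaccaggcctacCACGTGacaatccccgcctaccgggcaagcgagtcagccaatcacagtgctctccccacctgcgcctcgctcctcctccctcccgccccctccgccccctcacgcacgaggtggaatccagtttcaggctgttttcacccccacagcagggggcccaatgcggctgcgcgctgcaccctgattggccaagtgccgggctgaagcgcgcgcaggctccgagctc

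Hormad1 (chr3:95559427-95559676, plus strand): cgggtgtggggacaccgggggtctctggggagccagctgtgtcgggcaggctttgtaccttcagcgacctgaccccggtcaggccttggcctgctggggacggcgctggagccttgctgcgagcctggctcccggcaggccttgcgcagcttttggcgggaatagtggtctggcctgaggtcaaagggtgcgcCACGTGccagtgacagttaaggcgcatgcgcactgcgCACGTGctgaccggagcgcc

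Ddx4 (chr13:112652311-112652560, minus strand): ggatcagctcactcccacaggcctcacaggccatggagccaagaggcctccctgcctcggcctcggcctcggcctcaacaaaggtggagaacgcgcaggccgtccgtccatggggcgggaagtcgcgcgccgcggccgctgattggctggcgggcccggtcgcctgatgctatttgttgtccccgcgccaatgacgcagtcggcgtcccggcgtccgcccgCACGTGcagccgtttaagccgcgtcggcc

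The E-box is at 223 bases before the start in Mael and 29 in Ddx4, and Hormad1 has 2, the further one at 57 bases. It was in such a window of 6 of the 11 germline genes that fell and have a promoter entry (54.5%), against 7.83% of the 16990 measured genes with one, 7.55% of all genes that rose and 12.3% of all genes that fell. Among genes that rose it was in 3 of 9 cholesterol, 2 of 7 primed and 1 of 14 neural genes, and in 1 of 9 naive factors that fell. Germline genes that did not fall were not counted, so these shares do not link the motif to the fall. A gene counted if any of its windows held the motif on either strand. The motif was among 8 searched, the others being the box CCAAT, the sterol element TCACNCCAC, the Esrrb site CAAGGTCA, the Klf site GGGTGTGG, the repeat GCGCGC, the Sox site AACAAAG and the octamer ATTTGCAT. None of them contains another. A match describes the letters of the window and shows no binding.

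Of 13 genes that write, remove or guard DNA methylation 3 rose and 4 fell (1 or 2 rose and 4 fell when 1 array was left out). Dnmt3l, the cofactor of the de novo methyltransferases, fell from 9.03 and 7.47 to 3.38 and 3.49 (-4.82 ± 0.47, adjusted p = 4.72e-05). Among the demethylating enzymes Tet2 fell from 8.54 and 7.58 to 4.23 and 4.21 (-3.84 ± 0.37), Tet1 fell (-1.97 ± 0.30) and Tet3 rose from 4.87 and 4.85 to 6.64 and 6.67 (1.79 ± 0.30). Zfp57, which protects methylation at imprinted regions, fell (-2.37 ± 0.30). Of 20 Polycomb genes 5 fell and 0 rose (3 or 4 fell when 1 array was left out), among them Suz12 (-1.85 ± 0.22) and Eed (-1.51 ± 0.24), core subunits of the complex that methylates histone H3, while Ezh2, its enzyme, did not pass (0.74 ± 0.22, adjusted p = 0.0549). Among 26 imprinted genes outside the Dlk1-Dio3 region 6 rose and 4 fell (3 to 6 and 3 or 4 when 1 array was left out): Peg3 rose from 7.58 and 5.99 to 9.97 and 10.13 (3.26 ± 0.40), Grb10 rose (2.63 ± 0.26), and the amino acid transporter gene Slc38a4 fell from 8.72 and 10.59 to 3.76 and 2.91 (-6.32 ± 0.72). The 5 genes measured in the Dlk1-Dio3 region did not pass, with differences between -0.36 and 0.00.

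Enzymes of cholesterol synthesis rose together in rsEpiSC. Of 18 measured genes 12 rose and 0 fell, with a median of 1.53, and 8 to 11 rose when 1 array was left out. Hmgcs1, which makes the precursor HMG-CoA, had 8.58 and 9.37 in ESC and 11.45 and 11.67 in rsEpiSC (2.58 ± 0.24, adjusted p = 3.24e-05). Mvd, which completes the isoprene unit, had 6.66 and 6.09 against 9.03 and 9.42 (2.85 ± 0.33), and Fdps, which joins such units, 8.33 and 8.27 against 10.83 and 11.08 (2.66 ± 0.28). Lss, which closes the sterol rings, rose from 6.22 and 5.75 to 8.42 and 8.44 (2.45 ± 0.35). At the end of the pathway Dhcr7, which makes cholesterol from its last precursor, rose from 6.76 and 6.83 to 9.68 and 9.90 (2.99 ± 0.28). These enzymes were named for the largest rises of the list, so the distance between their groups follows from that choice. They also lay above EpiSC, by 2.03 for Hmgcs1 (adjusted p = 0.000606), 1.97 for Lss (adjusted p = 0.0078), 1.42 for Mvd (adjusted p = 0.0348), 1.40 for Dhcr7 (adjusted p = 0.015) and 1.16 for Fdps (adjusted p = 0.041). Srebf2, the factor that drives the pathway, did not pass at the level of its RNA (1.17 ± 0.52, adjusted p = 0.218), and neither did Insig1, which holds it back (1.73 ± 0.53, adjusted p = 0.0608).

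Promoters of 2 enzymes are shown for the CCAAT box, the site of NF-Y, a factor that works beside SREBP on sterol genes. They are again the 250 bases before the start in RefSeq's annotation of GRCm38.p6, with CCAAT or its reverse complement in capitals.

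Hmgcs1 (chr13:119690101-119690350, plus strand): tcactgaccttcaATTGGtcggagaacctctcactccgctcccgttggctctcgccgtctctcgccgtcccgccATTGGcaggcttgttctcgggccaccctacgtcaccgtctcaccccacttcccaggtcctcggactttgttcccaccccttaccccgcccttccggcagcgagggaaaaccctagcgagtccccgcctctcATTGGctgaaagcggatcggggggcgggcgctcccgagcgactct

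Mvd (chr8:122443423-122443672, minus strand): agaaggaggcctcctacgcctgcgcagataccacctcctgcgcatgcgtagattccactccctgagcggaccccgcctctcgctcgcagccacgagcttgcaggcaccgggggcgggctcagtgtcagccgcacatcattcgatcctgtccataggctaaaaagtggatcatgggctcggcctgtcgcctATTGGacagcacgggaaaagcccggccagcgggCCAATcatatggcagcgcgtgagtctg

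Hmgcs1 holds 3 such boxes and Mvd 2. The box was in a window of all 9 cholesterol genes that rose and have a promoter entry, against 38.7% of the 16990 measured genes with one and 41.1% of the genes that rose. Cholesterol genes that did not rise were not counted, so these shares do not link the box to the rise.

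Stress genes fell in part, and few genes of the cell cycle passed. Of 18 immediate early and stress genes 9 fell and 0 rose (4 to 6 fell when 1 array was left out). Hspb1, a small heat shock protein, had 9.89 and 9.77 in ESC and 4.54 and 4.60 in rsEpiSC (-5.26 ± 0.23, adjusted p = 2.24e-07; its other probe set gave -2.74), and was 4.55 lower than in EpiSC (adjusted p = 3.67e-06). Gadd45b fell from 9.61 and 11.03 to 6.54 and 6.51 (-3.80 ± 0.55), and Nupr1 from 8.68 and 8.39 to 4.59 and 4.88 (-3.80 ± 0.45). Cyclin D2 (Ccnd2) had 5.72 and 3.62 in ESC and 9.97 and 10.11 in rsEpiSC, and Cdkn2a, which codes for inhibitors of the cell cycle, fell (-1.71 ± 0.30). Of 18 genes of DNA replication and mitosis 2 rose (11.1%, against 5.49% of all genes), Aurkb (1.48 ± 0.21) and Mki67 (1.40 ± 0.28). The call of Mki67 was lost when some arrays were left out. Of the 18 genes 17 had positive differences and 1 a negative one (-0.061), with a median of 0.59. Energy metabolism showed no common direction among the genes that passed, although 30 of 40 measured subunits of the respiratory chain had small negative differences (median -0.166). Of 18 glycolysis genes 4 rose and 2 fell, of which Pfkp (-2.86 ± 0.26) and Ldhb (-2.23 ± 0.42) were the falls. The rises numbered 0 to 5 when 1 array was left out, and the falls stayed at 2. Of 40 subunits of the respiratory chain 1 rose (2.5%) and 2 fell (5%), near the 5.49% and 4.80% of all genes. Each of these calls was lost when some arrays were left out.

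**Figure D5:**
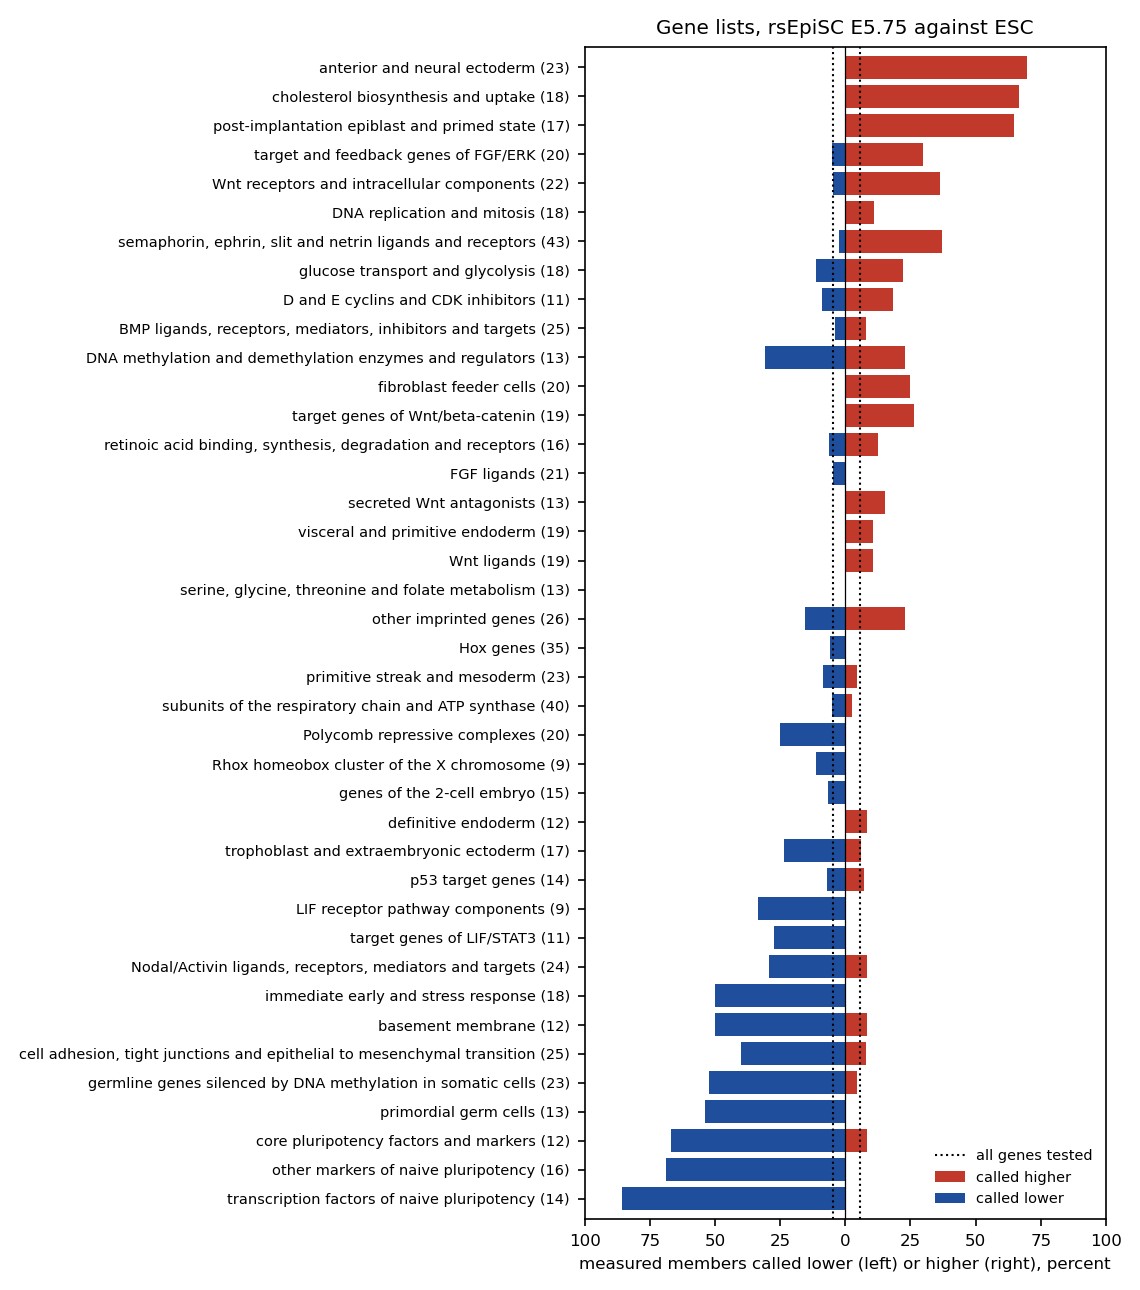
Share of the measured members of each list (y axis, number measured in brackets; lists of at least 9 genes) that fell (left, blue) or rose (right, red), in percent (x axis), ordered by the list's median difference. The dotted lines are the shares over all genes, 5.49% for rises and 4.80% for falls; naive factors lie at the bottom and the anterior and neural list at the top.

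Probe sets for microRNA precursors were examined in addition, and this choice was made after their values were seen. Of 467 such genes 14 rose and 4 fell, together 3.85% against 10.3% of all genes. The mature microRNAs of the precursors that passed in 3 clusters are shown, with the seed (bases 2 to 8, by which targets are bound) in capitals, as given by RefSeq (GRCm38.p6). The arrays measured precursor or host transcripts, not these mature RNAs.

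miR-17-5p: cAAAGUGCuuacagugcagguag

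miR-20a-5p: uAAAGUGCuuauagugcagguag

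miR-20b-5p: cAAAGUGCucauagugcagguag

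miR-19a-3p: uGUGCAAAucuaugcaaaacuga

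miR-363-3p: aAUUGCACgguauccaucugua

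miR-290a-3p: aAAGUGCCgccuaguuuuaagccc

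The first 3 share 1 seed, which occurs in the Mir17 cluster, known for promoting proliferation, and in its relative on the X chromosome. Mir17 rose from 4.30 and 4.86 to 6.16 and 6.38 (1.69 ± 0.25, adjusted p = 0.000957), Mir20a from 2.52 and 2.26 to 5.71 and 4.68 (2.80 ± 0.70) and Mir19a from 1.60 and 1.58 to 4.48 and 3.34 (2.32 ± 0.37). In the related cluster Mir20b rose from 2.05 and 2.13 to 4.70 and 5.28 (2.90 ± 0.56) and Mir363 from 1.74 and 2.01 to 4.75 and 7.22 (4.11 ± 0.86, adjusted p = 0.00868). Other members did not pass: Mir18 of the first cluster (1.42 ± 0.44, adjusted p = 0.0617), and Mir18b (0.85 ± 1.11, adjusted p = 0.808), Mir19b-2 (1.58 ± 0.55, adjusted p = 0.104) and Mir92-2 (0.25 ± 0.42, adjusted p = 0.868) of the second. Mir290a, the precursor measured from the cluster that dominates ESC, fell from 3.87 and 4.12 to 1.26 and 1.95 (-2.39 ± 0.60, adjusted p = 0.0244). When 1 array was left out, Mir17 and Mir19a kept their calls, Mir20a and Mir290a lost them in each of the 4 fits (adjusted p up to 0.201 and 0.19), and Mir20b and Mir363 lost them without rsEpiSC replicate 2 (adjusted p = 0.0613 and 0.106). Mir302a (0.31 ± 0.72) and Mir302b (-0.24 ± 1.26), of the cluster typical of the primed state, did not pass in rsEpiSC E5.75. Levels were not compared between these genes.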

How the data were processed

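RNA was hybridised to 12 mouse arrays, 2 in each of 6 groups taken from their titles. The deposited table holds log2 signals of 41345 probe sets, made by the authors with RMA in the package oligo (submitters' processing notes; versions not given here). A human array is named in the labels, yet the probe identifiers match a mouse probe set table, which named 23521 probe sets with 1 gene; 1814 with several and 16010 with none were left out. The probe set with the highest mean stood for each of 22180 genes. Values were used as deposited, with no filter on low signal, and the number of arrays limits the precision.

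Groups were compared by limma 3.58.1 under R 4.3.3 (lmFit on 6 group means, eBayes with a variance trend, 6 residual degrees of freedom, Benjamini-Hochberg over all genes, adjusted p under 0.05), which was tested on simulated data. Members and gene lists were chosen with earlier results of these data known, so list counts are descriptions. Named genes are the 15 highest and 15 lowest that passed without overlap (predicted genes and small RNAs left out), up to 6 members of each list that passed in each direction and 3 that did not, all members of lists of at most 12, and 14 reference genes (Cdh1, Cdh2, Axin2, Dnmt3b, Eif2s3y, Xist, Esrrb, Fgf5, Klf4, Nanog, Otx2, Pou5f1, Zfp42 and Sox2). MicroRNAs, runs of neighbours and feeder collagens were added after their values were seen. Names come from RefSeq GRCm38.p6, which held 99.18% of the identifiers.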

Additional observations from a re-analysis of the deposited data

Results flagged for a closer look

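The rsEpiSC groups of E6.5 and E5.75 differed in 4 named genes by limma's test (rsEpiSC E6.5 minus rsEpiSC E5.75). Stage, line and sex-linked signal differ together between these groups and cannot be told apart. Mid1 was 3.81 lower at E6.5 (-3.81, adjusted p = 0.000114). Utf1 was higher at E6.5 by 3.32 (adjusted p = 0.00587), at about the level of ESC. Nnat, an imprinted gene of the developing brain, read 3.78 and 3.47 in rsEpiSC E5.75 and 9.58 and 7.04 in rsEpiSC E6.5, a difference of 4.69. Xist, the RNA that silences 1 X chromosome in female cells, read 5.96 and 5.64 in ESC, 8.23 and 10.19 in rsEpiSC E5.75 and 3.17 and 2.65 in rsEpiSC E6.5. It rose from ESC to rsEpiSC E5.75 (3.41 ± 0.54, adjusted p = 0.00146) and was lower in rsEpiSC E6.5 (-6.30, adjusted p = 0.00072). The Y-linked gene Kdm5d read 4.56 and 2.54 in rsEpiSC E5.75 and 6.30 and 6.14 in rsEpiSC E6.5.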

How the results depend on the processing

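Leaving out 1 of the 4 arrays, with a lone array taken to vary like the other groups, gave 1027 to 2065 genes that passed, 523 to 1159 that rose and 504 to 941 that fell. The alternatives other than leaving out an array gave counts within 1.5 times the reported ones. With the replicate number as a block 2138 genes passed, 2089 of them among the 2282. The deviations of same-numbered arrays of the 2 groups had a correlation of 0.06. This is 1 value from 2 groups and cannot exclude a pairing by number. The share of rises among genes that passed went from 44.2% (without ESC replicate 2) to 56.1%, against 53.37% reported. Of 191 named genes that passed, 130 did so under every one of the 14 alternatives that could test them, 60 were lost when some array was left out, and 0 changed direction. Eif2s3y passed without ESC replicate 1 (-4.45, adjusted p = 0.00647). Among the genes in the text that had not passed, 11 changed direction when some array was left out, and the cause was not tested. Their ranges over the arrays left out were -0.027 to 1.42 for Dnmt3b, -4.45 to 1.03 for Eif2s3y, -1.65 to 0.80 for Uty, -0.58 to 0.091 for Nr1d2, -0.76 to 0.26 for Pramel6, -0.20 to 0.19 for Sall4, -0.14 to 0.11 for Fap, -0.16 to 0.38 for Lum, -0.50 to 2.20 for Mir18b, -0.57 to 1.18 for Mir302a and -1.34 to 0.85 for Mir302b. Quantile normalization turned Fap (0.012) and Sall4 (0.0020), and the mean of probe sets turned Sall4 (0.043). Signals near the lower end of the scale limit what can be read from falls in genes that were already dim in ESC.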

Other observations

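Several genes that passed lie side by side on a chromosome in RefSeq's order of measured genes (GRCm38.p6), a pattern looked for after values were seen. Runs of at least 3 neighbours that all passed in 1 direction numbered 22 for falls and 14 for rises. No expected number of such runs was computed. Gdf3, Dppa3 and Nanog form such a run on chromosome 6, Triml1, Triml2 and Zfp42 on chromosome 8, and Dppa5a, Ooep and Ddx43 on chromosome 9. The longest, with 6 genes, is on chromosome 4 and holds Rex2, Zfp982, Zfp985, Zfp979 and Zfp534, members of a zinc finger family whose close copies may share probes. The T-cell receptor genes Cd3d, Cd3e and Cd3g also fell together, by a median of 2.33 on the log2 scale, where 4.80% of all genes fell.

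All 5 measured genes of the Armcx family on the X chromosome rose (median 1.91, from 1.36 to 3.01). Of the 905 measured genes on the X chromosome 7.07% rose, against 5.49% of all genes. Xist rose between the same groups, and the part of sex-linked differences in the Armcx rises was not tested. Of 22 measured beta protocadherin genes, neuronal adhesion molecules that lie in tandem on chromosome 18 and resemble each other, 9 rose and 0 fell (median 0.81). On that chromosome 10.2% of genes rose, against 5.49% of all genes, and 8.84% did so among the 498 that are not clustered protocadherins.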
